A study of Piaractus mesopotamicus with 6 samples.

Results

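The 3 libraries of cultured primary muscle cells, MC1, MC2 and MC3, are described on their own, out of 6 libraries in the series. The fish was the pacu, Piaractus mesopotamicus, a freshwater relative of piranhas, sampled as juveniles. All columns other than those of MC1, MC2 and MC3 were left aside. The table held 71447 rows, each an assembled transcript, and 1 row per gene symbol was kept, the one with the highest mean over the 3 libraries. This left 13483 symbols, of which the 300 with the largest share of the reads were sorted by function. The regulators of cell lineages and the symbols in steady order over MC1, MC2 and MC3 were then described.

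The cultured cells were wild type, from fish of 12 to 20 g held at 28 °C under 12 h of light and 12 h of dark. Each isolation of cells drew on the fast-twitch muscle, from the back above the midline, of 12 animals. The cells grew in complete growth medium, which was DMEM with 10% fetal bovine serum and 1% antibiotics, and no other treatment was listed. Poly(A) RNA was sequenced as stranded libraries, and the 3 tissue libraries, from 6 animals, were not analysed here. Whether the cell libraries were separate isolations is not given in the sources used here, nor is the number of days in culture, so the spread between libraries may be technical in part. The labels number the libraries as replicates and give those numbers no order in time or dose.

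A culture from skeletal muscle starts from satellite cells, the stem cells that lie against the muscle fibres and carry the factor Pax7. Once active they divide as myoblasts, which need the factors Myf5 and Myod1, and under Myog they leave the cell cycle and fuse into myotubes that build sarcomeres. Fibroblasts, tendon cells, vessel cells and blood cells of the muscle can enter such a culture with them. Roles given below are those known for the zebrafish or mammalian gene of the same name. The libraries were of whole cultures, so fewer cells of a type and less RNA per cell cannot be told apart.

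The rows of the libraries summed to 115224600 reads in MC1, 108075112 in MC2 and 105795157 in MC3, recovered from the deposited normalised counts. One read was worth 0.391, 0.439 and 0.436 normalised counts in MC1, MC2 and MC3, so counting error was small for any symbol above 100. All values below are normalised counts, that is reads divided by 1 factor per library, and are not divided by transcript length. They therefore rank symbols by reads taken, not by copies of RNA.

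MC1 stood somewhat apart from the other libraries. Across 8643 symbols with a mean of 100 or more, the Pearson correlation of log2(value + 1) was 0.926 between MC1 and MC3, 0.941 between MC1 and MC2 and 0.974 between MC2 and MC3. These are correlations across genes, which are not independent. Differences of 2-fold or more were seen for 532 symbols between MC1 and MC3, 444 between MC1 and MC2 and 124 between MC2 and MC3. In each pair the reads differed far beyond sampling noise (a chi-square of 219, 81.8 and 111 for each degree of freedom, in the same order), so the 3 were counted as separate libraries.

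A pair of assembled genes known by clone names alone set MC3 apart in another way. Their 20 rows took 9.61% of the total in MC1, 6.002% in MC2 and 0.523% in MC3. The names are CT583728.14 and wu:fi09b08 for the first gene, and BX548011.1, AL935186.6, CT583728.24 and zgc:158463 for the second. No role is assigned to them here. CT583728.14 had 760941, 467954 and 36586 in MC1, MC2 and MC3, and BX548011.1 had 427914, 322427 and 30279. Both were far lower in MC3 than in the other libraries, so the counts of list members in steady order below are also given with the libraries scaled to equal totals without these genes, beside the share of all symbols on that scale.

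The reads of the cultured cells were led by genes of the extracellular matrix. The first symbol was col1a2, a chain of type I collagen, with 387798, 433773 and 521799.6 in MC1, MC2 and MC3, or 447790.2 ± 68092 (SD, n = 3). It took 0.97% of the total of all rows. The fibronectin gene fn1b was next among genes of known role, with 269188, 302525 and 408717 in the same libraries. The other chain of type I collagen followed as col1a1b, with 179394, 205505 and 246862, and as col1a1a, with 118890.3, 130054 and 140706. For all 4 genes MC1 was lowest and MC3 highest, except that col1a1a was lowest in MC2 on equal library totals without the clone-named genes.

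**Figure D1:**
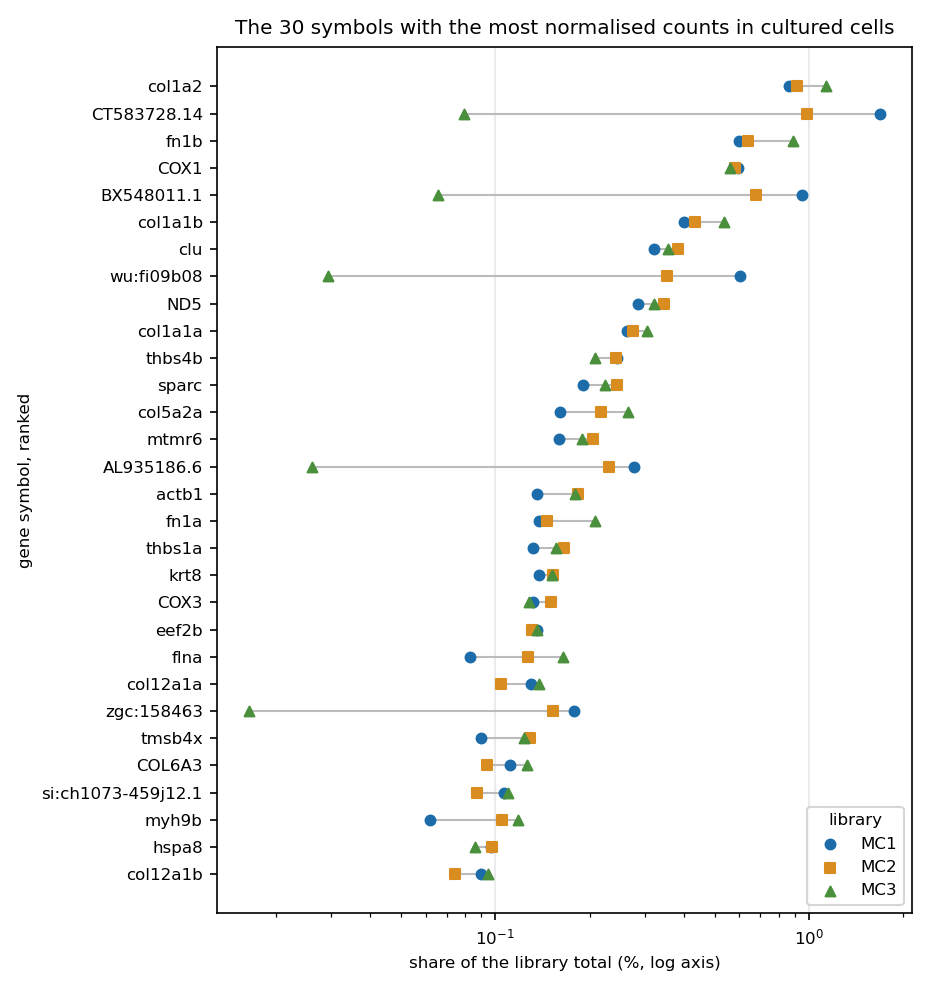
Share of the library total taken by each of the 30 symbols with the most normalised counts. The x axis is the share in percent on a log axis, each row is a symbol, and the points are the 3 libraries MC1, MC2 and MC3, joined by a line over their range. The type I collagens and fibronectin lie close together in the 3 libraries, whereas 5 clone-named symbols lie far lower in MC3.

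Among the 30 symbols with the most reads, 12 coded for matrix proteins, 6 had clone names, 4 belonged to the actin cytoskeleton and 3 to the mitochondria. The secreted chaperone clu had 143992, 181209 and 163247 in MC1, MC2 and MC3. The mitochondrial cytochrome oxidase subunit COX1 had 267334, 274997 and 258132, and the complex I subunit ND5 had 128680.0, 163386 and 147303. COX1 differed little between libraries, and clu and ND5 were both highest in MC2. The matricellular proteins thbs4b, a thrombospondin of tendon and muscle attachments, and sparc, a collagen-binding protein, had 110386, 115067 and 95673 (thbs4b) and 85918, 116009.6 and 102962 (sparc). The phosphatase gene mtmr6, also in the first 30, shared its assembled gene with sparc and followed it, so that its rank is uncertain.

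Taken as sums, the 10 highest symbols held 6.56% of the total in MC1, 5.59% in MC2 and 4.27% in MC3, and the 300 highest held 15.9%, 15.5% and 13.6%. Pooled over the 3 libraries these shares were 5.46% and 15.02%, and 4.57% and 13.66% without the clone-named genes. The kept row of each symbol left out its other rows, so the kept symbols together held only 27.4%, 26.9% and 25.1% of the totals of MC1, MC2 and MC3. Against the kept symbols alone the 300 held 56.7%, and 174 symbols held 50% of the kept total. With all rows of a symbol added up, 67 symbols held that share, and fn1b moved ahead of col1a2, with 6.86% and 5.49% of the total. Of the 300 highest symbols, 217 stayed among the 300 highest by summed rows.

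Limits of the ranking were shared by many of the 300. They belonged to 270 assembled genes, and 104 of them shared an assembled gene with another name. The lowest symbols inside were cttn, rps25 and ldhba, with means of 5269.5, 5244 and 5243. The first outside were rps27.1, mmp13b and cct7, at 5234, 5234 and 5233.

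By class, the 41 collagen and matrix symbols took the largest share of any class, at 4.08% of the total in MC1, 4.32% in MC2 and 5.08% in MC3. This was 4.49% ± 0.52 (SD, n = 3). With the clone names left out of the 300, the class held 34.5%, 33.8% and 38.7% of the rest in MC1, MC2 and MC3. Besides type I collagen it held col5a2a, a chain of type V collagen, with 72304, 103022 and 121753, and col12a1a, a collagen on the surface of fibrils, with 58406, 49359 and 63491. COL6A3, a chain of the type VI collagen around muscle fibres, had 50096, 44558 and 58123. The small proteoglycans of collagen fibrils dcn and lum had 29519, 25821 and 26936 (dcn) and 25589, 26668 and 22427 (lum). Among these, col5a2a was lowest in MC1, while col12a1a and COL6A3 were lowest in MC2.

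The genes that process the matrix formed a further class of 18 symbols with 0.52% of the total on average. Its highest were timp2a, an inhibitor of matrix proteases, with 28514, 34071 and 35641, mmp2, a gelatinase, with 27025, 30100.5 and 24972, and loxl2b, which crosslinks collagen, with 17667, 21856 and 24536. The enzyme p4ha1b, which hydroxylates proline in new collagen, had 18015, 18357 and 21790.3. The collagenase mmp13b, just outside the 300, had 2558, 8727 and 4416, and mmp9, a gelatinase, had 5004, 8464 and 2977, so that these proteases varied more between libraries than mmp2 did.

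**Figure D2:**
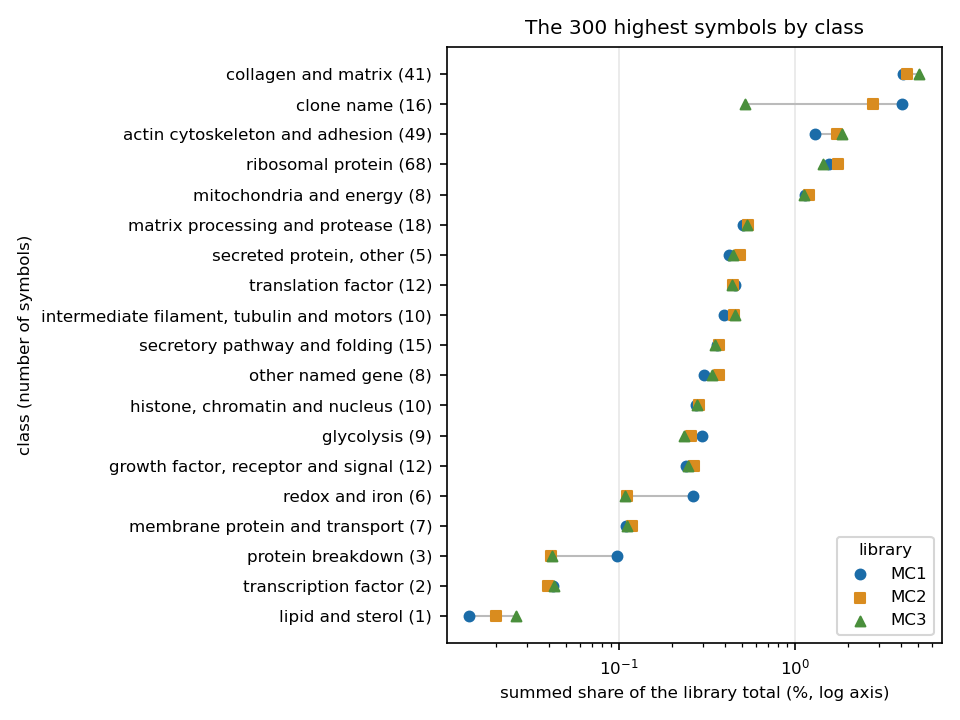
Summed share of the library total for each function class of the 300 highest symbols, with the number of symbols in brackets. The x axis is the share in percent on a log axis and the points are the 3 libraries. Most classes lie close together in MC1, MC2 and MC3, but the clone names lie at 4.05%, 2.76% and 0.518%, and the redox and iron class at 0.263%, 0.111% and 0.107%.

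Genes of the actin cytoskeleton and of cell adhesion made up 49 of the 300 symbols and took 1.62% ± 0.29 of the total (SD, n = 3). Cytoplasmic actin actb1 had 61423, 87330.4 and 82892 in MC1, MC2 and MC3, and flna, which crosslinks actin, had 37496, 60136 and 75647. The non-muscle myosin heavy chain myh9b had 28024, 49776 and 54677, and tmsb4x, which binds free actin, had 40663, 61423 and 56835. In 43 of the 49 symbols MC1 was lowest, against 40.0% of all 8643 symbols. The count was 36 with the libraries scaled to equal totals without the 2 clone-named genes, against 24.7% of all symbols on that scale. Contractile genes of smooth muscle and of myofibroblasts were among them, with acta2 at 30331, 40699 and 43135 and tagln at 23310.0, 37538 and 41499, although acta2 shared its assembled gene with other actins.

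The 68 ribosomal proteins behaved as a block. Together they took 1.58% ± 0.16 of the total (SD, n = 3). The highest were rplp0, with 26785, 32167 and 25066 in MC1, MC2 and MC3, rps2, with 25779, 31348 and 23037, and rpl3, with 23129, 24923 and 23749. All 68 were highest in MC2, against 37.1% of all symbols, and 54 were lowest in MC3, against 34.8%. The 300 as a whole also leaned to MC2, with 177 of them (59.0%) highest there, these 68 included. Scaled to equal totals all 68 were still highest in MC2, against 30.2% of all symbols, and 64 were when the clone-named genes were also left out, against 30.5%. On that last scale 67 were lowest in MC3, against 47.8% of all symbols. The translation factors gave 12 symbols and 0.45%, led by eef2b, which moves the ribosome along, with 61219, 62248 and 62703. This gene was among the 5 of the 300 with the smallest spread, at a coefficient of variation of 1.22%.

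Keratins of simple epithelia took many reads in all libraries. The gene krt8 had 62269.9, 72346 and 70131 in MC1, MC2 and MC3, krt18a.1 had 26109, 30806 and 27939, krt18b had 25171, 30884 and 28368 and krt4 had 22109.8, 26377 and 25586. Keratin 8 and keratin 18 pair into one filament, and all 4 genes were highest in MC2 under each scaling tried. krt4 shared an assembled gene with krt8. The adhesion molecule of epithelia epcam stood only at 142, 133 and 149, and tp63, a factor of the basal epidermis, at 17.2, 25.5 and 38.8. cdh1, the cadherin of epithelia, was not among the kept names.

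The other classes were smaller. The mitochondrial class held 8 symbols and 1.15% ± 0.04, mainly COX1, ND5 and COX3. Folding and secretion held 15 symbols, with the heat shock cognate hspa8 at 43611, 46278 and 39649, the disulfide isomerase pdia3 at 13534, 13978 and 14120.0 and the proline isomerase ppib at 12380.0, 15038 and 14191. Glycolysis held 9, led by gapdhs at 33285, 39628 and 33288 and eno1a at 18209.8, 18896 and 15247. Growth factors, receptors and signals held 12, among them the endocytic receptor lrp1aa at 21012, 18273 and 17150.4 and the follistatin-like protein fstl1b at 16317, 20409.8 and 18901. A desaturase of fatty acids, scd, at 6348, 9512 and 11877, was the sole lipid gene, lowest in MC1 and highest in MC3. Transcription factors gave only 2 of the 300, atf4a, the factor of the amino acid response, at 11546, 11212 and 12645, and tbx2b, which shared its assembled gene with TIMP3.

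Within the 300 the spread between libraries was mostly small, much as over all symbols. The median coefficient of variation was 13.2%, close to the 14.3% over all 8643 symbols. It was under 10% for 88 of the 300, against 2699 of the 8643. It was over 50% for 14 symbols, against 333 of the 8643. The largest was that of sqstm1, the autophagy receptor p62, at 110%, with 26822, 4298 and 4366 in MC1, MC2 and MC3. GSTP1, a glutathione transferase, followed at 106%, with 58331, 9756 and 10422. In both, MC1 was far above the other libraries, which lay close together. Of the 14 symbols 6 had clone names, and 5 others were redox genes or a gene that shares an assembled gene with one: txnrd3, tktb, svep1, prdx1 and GSTP1. The remaining ones were sqstm1, spp1, a secreted phosphoprotein of bone and wounded muscle, with 3441, 13943 and 6836, and mmp9. The smallest spread was that of fkbp10b, a collagen chaperone, with 9142, 9204 and 9165 and a coefficient of variation of 0.341%.

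Turning to lineage, 235 regulators of 10 lineages had been listed, and 136 of them were among the kept names. All but 10 of these, 126, had 3 or more reads in each of the 3 libraries, and 75 had a mean of 100 or more. Of all 13483 kept symbols, 12868 passed the same floor and 8643 had such a mean, so the regulators did not stand out in this. Only six4a and gata1a were at 0 in all 3. A floor of 3 reads is low at this depth, and 60 regulators reached 100 normalised counts in every library.

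Regulators of satellite cells, myoblasts and early differentiation were measured in all 3 libraries, whereas myf6, of mature fibres, was not. The satellite cell factor pax7b had 925, 1051 and 1133 in MC1, MC2 and MC3, and its duplicate pax7a had 12.1, 38.2 and 75.0. Both were lowest in MC1 and highest in MC3. With all rows summed the log2 difference of pax7b between MC3 and MC1 was 0.84, against 0.29 for the kept row and 0.12 after scaling to equal totals without the clone-named genes. pax3a, the paralogue that acts in the embryonic muscle precursors, stood at 4.69, 3.51 and 5.23, near the floor. pax3b was not among the kept names.

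Of the factors that commit cells to muscle, myf5 had 121, 115 and 299 and myod1 had 39.9, 86.9 and 238 in MC1, MC2 and MC3. myog, which starts differentiation, had 44.2, 133 and 326. The fusion protein mymk had 23.5, 45.2 and 131, though it shared an assembled gene with herc7, and its partner mymx was not among the kept names. myf6, a factor of mature fibres, was at 0 in MC1 and MC2 and at 6.10 in MC3. MC3 was highest for every one of these genes, and MC1 was lowest for all but myf5 and myf6.

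**Figure D3:**
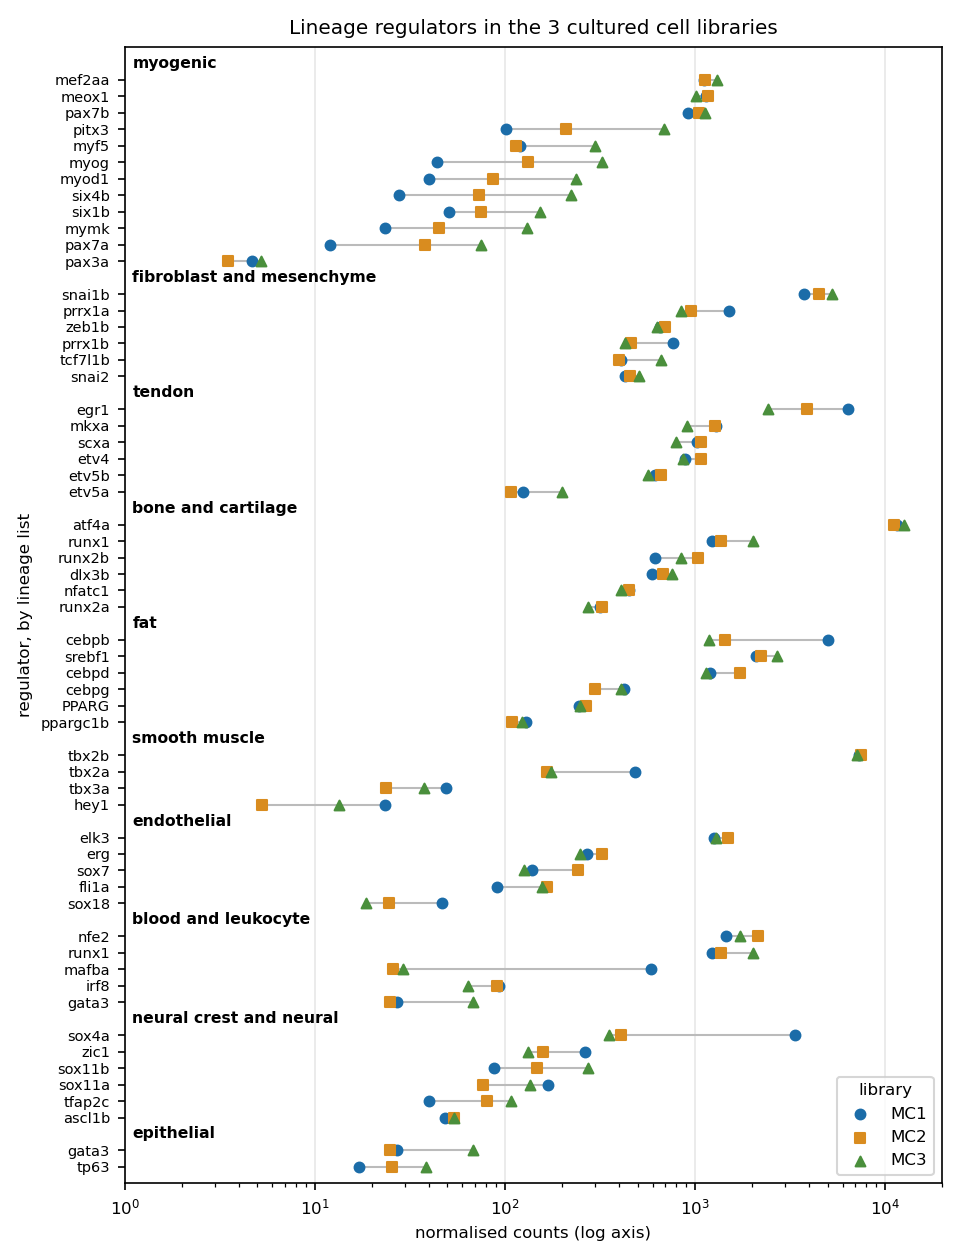
Normalised counts of lineage regulators in MC1, MC2 and MC3, on a log axis, grouped by the lineage they are listed under. For the myogenic list a selection of 12 regulators is drawn, and for each other list up to 6 of the highest that passed the floor of 3 reads. The factors myog, myod1, six4b and pitx3 spread over 4-fold or more with MC3 highest, while scxa, mkxa, PPARG and erg lie close together.

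Among all 42 myogenic regulators above the floor, 5 took the most reads. Of these nfixb, a factor of fetal and later muscle, had 5847, 4061 and 3979, id1, an inhibitor of the muscle factors, had 2044, 1898 and 2152, and mef2aa, their partner on muscle promoters, had 1118, 1132 and 1311. The last of these shared an assembled gene with mef2ca, mef2cb and mef2d. meox1, of the somite, had 1145, 1173 and 1021, and pax7b was the fifth. The other 37 above the floor had means of 4.48 to 753. Among them pitx3 had 101, 209.8 and 689, six4b had 27.8, 73.3 and 224 and six1b had 50.8, 75.1 and 153, all homeobox factors of muscle precursors. Each had MC1 lowest and MC3 highest.

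Of 24 myogenic regulators with a mean of 100 or more, 12 lay in the order MC1, MC2, MC3 from low to high, against 19.7% of all 8643 symbols. Another 6 lay in the opposite order, against 18.1%. The 6 were nfixb, mrtfab, meox2b, prdm1a, meox2a and id2a. Beyond the Poisson counting intervals described below, only 4 of the 24 were ascending and 3 descending, against 6.73% and 4.08% of all symbols. The lean to the ascending order was thus small by that stricter count. The 24 include mef2aa, mef2ca, mef2cb and mef2d, which shared an assembled gene, so they may not all be separate genes. Members such as myod1 and six4b reached a mean of 100 with only MC3 above 100, so the 24 do not stand for the whole list. Over the 24, the median log2 difference between MC3 and MC1 was 0.29, against 0.00 over all symbols. The 12 became 10 and the 6 became 7 on equal totals without the clone-named genes, against 12.2% and 29.9% of all symbols on that scale.

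The list of fibroblast and mesenchyme regulators gave 32 of 33 kept names above the floor and 20 with a mean of 100 or more. The highest was snai1b, a repressor that acts when cells turn mesenchymal, with 3738, 4491 and 5253 in MC1, MC2 and MC3. Limb and connective tissue factors prrx1a and prrx1b, which shared an assembled gene, had 1511, 959 and 842 (prrx1a) and 769.6, 464 and 428 (prrx1b). The zinc finger repressor zeb1b had 657, 694 and 637, and tcf7l1b, a Wnt effector, had 408, 399 and 665. The prrx1 genes ran opposite to snai1b, with MC1 highest. The twist factors, which hold cells in the mesenchymal state and block myogenic factors, did likewise: twist1a had 284, 162 and 108, twist1b 197, 75.5 and 53.2 and twist2 245, 78.6 and 52.3, from 1 shared assembled gene. Of the 20, 3 lay in ascending and 6 in descending order, against 19.7% and 18.1% of all symbols, and 2 and 7 on equal totals without the clone-named genes, against 12.2% and 29.9%. The descending ones include both prrx1 genes and all the twist factors. They therefore come from fewer assembled genes and may not all be separate genes.

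Tendon regulators were also present. The early growth response gene egr1 had 6369, 3900.3 and 2433, mkxa had 1292, 1282 and 910.4, and scxa, the defining factor of tendon precursors, had 1023, 1082 and 795 in MC1, MC2 and MC3. The Ets factors etv4 and etv5b had 885, 1077 and 865 (etv4) and 618, 661 and 567 (etv5b). MC3 was lowest for 5 of the 6 tendon regulators with a mean of 100 or more, against 34.8% of all symbols. The late tendon membrane protein tnmd had 763, 406 and 169, sharing an assembled gene with psen2. The cartilage and tendon matrix protein comp had 1947, 1335 and 435, and both were highest in MC1 and lowest in MC3.

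Bone and cartilage gave atf4a, which acts in osteoblasts and in the amino acid response, then runx1 with 1234, 1369 and 2026, runx2b, the bone factor, with 619, 1042 and 849, dlx3b with 598, 677 and 759 and nfatc1 with 449.7, 451 and 408. The 7 others had means of 10.8 to 306, among them sp7, which acts after runx2, at 50.8, 115 and 126, and the cartilage factor sox9b at 10.6, 23.7 and 19.2. Fat gave cebpb with 5025, 1435 and 1194, srebf1 with 2094, 2232 and 2706, cebpd with 1208, 1725 and 1146, cebpg with 425, 298 and 409 and PPARG, the defining factor of fat cells, with 246, 266 and 251. PPARG differed little between libraries, whereas cebpb was far higher in MC1 than in the others.

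Regulators of other lineages were fewer. The smooth muscle list gave tbx2b, tbx2a with 488, 168 and 174, tbx3a with 49.3, 23.7 and 37.5 and hey1 with 23.5, 5.27 and 13.5, 4 of 17 listed. The endothelial list gave elk3 with 1265, 1489 and 1289, erg with 271, 327 and 249, sox7 with 140.0, 242 and 126, fli1a with 91.5, 166 and 157 and sox18 with 46.5, 24.6 and 18.7. The blood list gave nfe2 with 1464, 2159.5 and 1721, runx1, mafba with 590.5, 25.9 and 29.2, irf8 with 93.1, 91.3 and 64.1 and gata3 with 27.0, 25.02 and 68.0, while the defining blood factors spi1b and gata1a were below the floor or at 0. The neural list gave sox4a with 3370.5, 409.5 and 356, zic1 with 264, 158 and 133, sox11b with 88.0, 148 and 275, sox11a with 169, 77.3 and 136 and tfap2c with 39.9, 80.8 and 108. In sox4a and mafba, MC1 was many times higher than either other library. The epithelial list gave gata3 and tp63 alone, neither with a mean of 100.

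The markers of the label were set beside those of other cell types. Of 22 markers listed for satellite cells and myoblasts, 17 were among the kept names and all 17 passed the floor. So did 12868 of all 13483 kept symbols. The values of the 17 summed to 20083, 22690 and 29271 in MC1, MC2 and MC3. Most of the sum came from ncam1a, an adhesion molecule of muscle and nerve cells, with 12930.2, 14865 and 19195. The receptor fgfr4 of myoblasts had 942, 1609.6 and 1398, and the integrin ITGA7 of muscle cells had 259.7, 433 and 937. M-cadherin cdh15 had 169, 159 and 644, the intermediate filament desma 177, 544 and 1529 and the acetylcholine receptor subunit chrna1 75.9, 95.2 and 344. MC3 was highest in 10 of the 12 with a mean of 100 or more, against 29.9% of all symbols. It was also highest in 10 under each other scaling, against 19.7% of all symbols on equal totals without the clone-named genes. A mean of 100 can be reached through MC3 alone, as by chrna1, so the 12 do not stand for the whole list.

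Fibroblast markers took far more reads. All 19 of the 22 listed that were among the kept names passed the floor, as did 12868 of all 13483 kept symbols. The values of the 19 summed to 803479, 884295 and 1026193 in MC1, MC2 and MC3. The 3 genes of type I collagen made up most of this. The platelet-derived growth factor receptors pdgfra and pdgfrb had 1912, 1840.0 and 1470.3 (pdgfra) and 2521, 3207 and 3496 (pdgfrb), the protease fap had 1498, 1721 and 1876 and the surface glycoprotein thy1 had 851, 787 and 675. Of the 19, 8 lay in ascending and 7 in descending order, against 19.7% and 18.1% of all symbols, and their median log2 difference between MC3 and MC1 was -0.13. The counts were 6 and 8 on equal totals without the clone-named genes, against 12.2% and 29.9%. Descending ones included prrx1a with prrx1b and twist1a with twist1b, each pair from a shared assembled gene, so they may not all be separate genes. Collagens are made by several cell types, so the sum does not give a share of cells. Markers that fit the label of muscle cells were thus measured in each library beside those of connective tissue.

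Those markers of blood cells that were among the kept names were close to absent. Among leukocyte markers lcp1 was at 0 in all 3 libraries, and PTPRC, the common leukocyte antigen, stood at 3.13, 8.34 and 3.92 in MC1, MC2 and MC3. Of 13 leukocyte markers listed, the 7 among the kept names summed to 20.3, 70.2 and 38.3. Of 7 erythroid ones listed, the 3 among the kept names summed to 1.56, 0 and 6.97. The listed globins were not among the kept names, so nothing is said of them. The Schwann and neural markers plp1b and mbpa were at 0, and mpz stood at 57.1, 36.0 and 54.5 but shared an assembled gene with 3 other names. Endothelial markers were mixed: the receptor kdrl had 928, 1664 and 1433 and VE-cadherin cdh5 had 715, 399 and 392, while pecam1 stood at 3.13, 8.78 and 0 and tie1 at 0.782, 6.15 and 1.74. Smooth muscle markers acta2 and tagln were high, but myh11a, the myosin that defines mature smooth muscle, stood at 8.99, 68.9 and 33.6. Among fat cell markers the fatty acid binder fabp11a had 2450.3, 4294 and 2144 and plin1, on the droplets of mature fat cells, had 22.7, 10.5 and 26.1. The cartilage proteoglycan acana had 138, 34.7 and 38.8.

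Muscle fibre genes such as myhz1.1 and mylpfa, with the mitochondrial gene ND1, had the largest differences among symbols that rose from MC1 to MC2 to MC3 beyond counting error. Of 8643 symbols, 1699 (19.7%) lay in the order MC1 < MC2 < MC3 and 1563 (18.1%) in the order MC3 < MC2 < MC1. The order MC1 < MC3 < MC2 held 20.4%, MC2 < MC1 < MC3 10.3%, MC2 < MC3 < MC1 14.9% and MC3 < MC1 < MC2 16.8%. Beyond the exact 95% Poisson intervals of neighbouring libraries, the ascending order was the most common of the 6. It then held 582 symbols (6.73% of all), against 353 descending (4.08%) and 424 in the order MC1 < MC3 < MC2. These intervals cover counting error only. With the libraries scaled to equal totals without the clone-named genes, 1053 of 8648 symbols were ascending (12.2%) and 2582 descending (29.9%). On that scale 24.7% of all symbols were lowest in MC1 and 49.8% highest in MC1, and the median log2 difference between MC3 and MC1 was -0.17, against 0.00 on the deposited scale. The ascending share of both steady orders was 52.1% on the deposited scale and 29.0% on that one.

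Among the 15 symbols with the largest log2 difference that were ascending beyond the counting intervals, 10 were muscle fibre genes and 2 were mitochondrial. The myosin heavy chain of fast fibres myhz1.1 had 9.39, 486 and 691 in MC1, MC2 and MC3, a log2 difference of 6.06 between MC3 and MC1. The regulatory light chain mylpfa had 14.1, 631 and 921, skeletal actin acta1b had 32.8, 680.3 and 868 and muscle creatine kinase ckma had 32.1, 259 and 456. Troponin C tnnc2 had 22.7, 227 and 288, the light chain mylz3 16.4, 249.8 and 510.3 and nebulin neb 27.0, 122 and 282. In each, MC1 was several times lower than MC2, and the ratio of MC3 to MC2 was smaller than that of MC2 to MC1.

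The mitochondrial complex I genes ND1 and mt-nd4 had 15.6, 778 and 1179 (ND1) and 16.0, 542 and 667 (mt-nd4) in the same libraries. ND5 and COX1, coded on the same genome, did not share that pattern, and their values, given above, were many times higher in every library. Whether the ND1 and mt-nd4 rows hold all reads of those genes was not tested. The other ascending symbols of the 15 were eef1a1l2, a translation elongation factor, with 11.3, 252 and 462, entpd5a, a nucleotide phosphatase, with 86.8, 183 and 1276, and the muscle splicing factor rbfox1l with 23.5, 64.5 and 266. Of these, entpd5a was high in MC3 alone.

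Across the list, all 24 sarcomere and contraction genes with a mean of 100 or more were lowest in MC1, against 40.0% of all symbols, and 21 were in ascending order, against 19.7%, of which 18 lay beyond the counting intervals, against 6.73%. None was in descending order. Their median log2 difference was 3.08 between MC3 and MC1, 1.55 between MC2 and MC1 and 0.44 between MC3 and MC2, against 0.00, 0.06 and -0.04 over all symbols. A mean of 100 can be reached through 1 or 2 libraries, so the 24 do not stand for the whole list. Some shared an assembled gene with another name of the list, such as ttn.1 with ttn.2, ckma with ckmb and mylz3 with myl1. The 24 may therefore not all be separate genes. Both limits also hold for the myotube markers given last. A further 27 sarcomere and contraction genes passed the floor with a lower mean, and 14 of the 65 kept names did not pass. On equal totals 23 of the 24 were lowest in MC1, against 34.4% of all symbols, and without the clone-named genes also 23, against 24.7%. The ascending count was then 20 in each case, against 18.7% and 12.2%. Of the 14 myotube markers with a mean of 100 or more, 13 were in ascending order, against 19.7% of all symbols, with a median log2 difference of 3.31. On equal totals without the clone-named genes 12 were, against 12.2%. Most of these markers are also sarcomere and contraction genes, such as mylpfa, myhz1.1, ryr1b, ckma, tnnc2, tnnt3a, neb and tnnt3b. The myotube counts therefore largely repeat those of the sarcomere list.

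**Figure D4:**
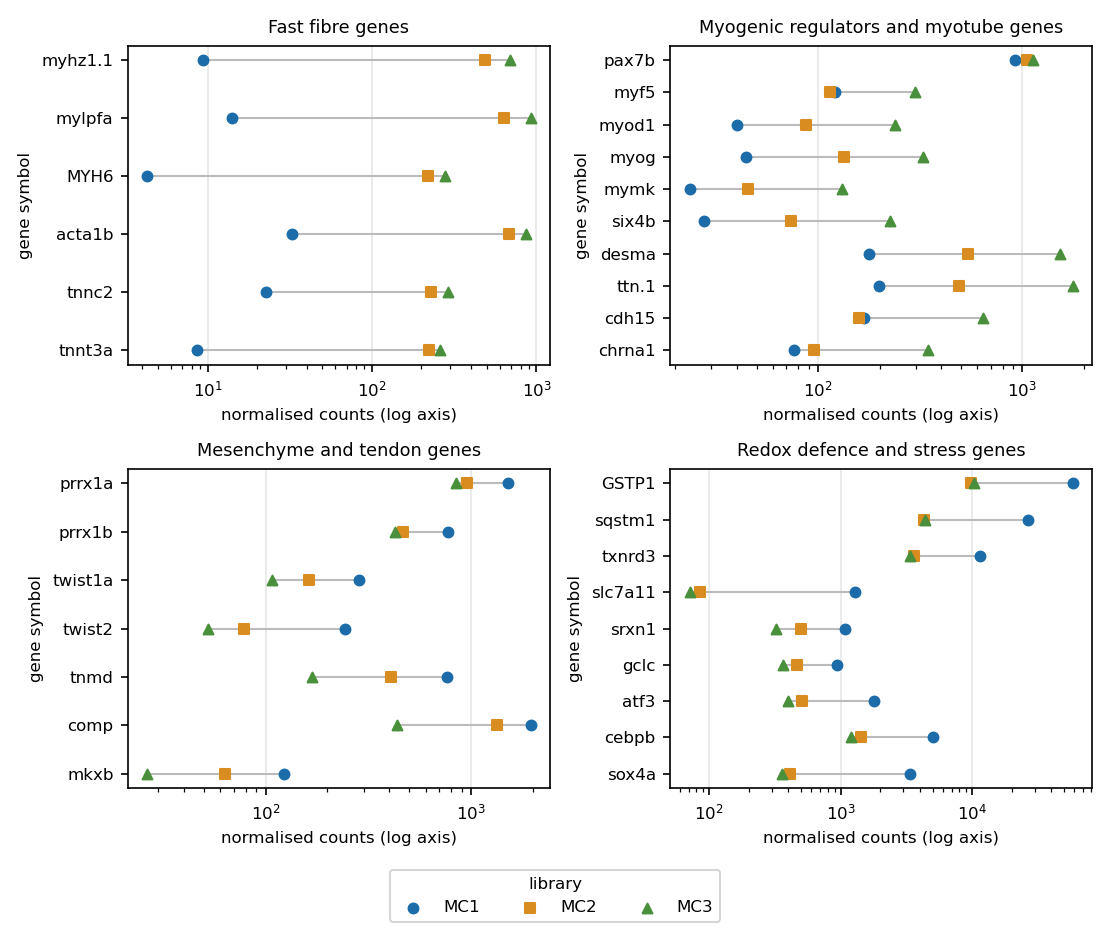
Normalised counts of 4 groups of genes in MC1, MC2 and MC3, each panel with its own log axis and a line over the range of each gene. In the genes drawn under fast fibre genes, MC2 and MC3 lie close together and MC1 far below. That panel includes MYH6, whose name is not that of a fast fibre gene and which shared an assembled gene with myh7bb. It leaves out mylz3, neb and tnnt3b, in which MC3 was 2 times MC2 or more. In the genes drawn as myogenic MC3 stands above MC2, and in those drawn as mesenchyme and tendon MC1 is highest and MC3 lowest. In the genes drawn as redox and stress MC1 stands far above the other libraries. These genes are selections and do not stand for their lists. Of the 20 fibroblast and mesenchyme regulators counted in the text, 9 were highest in MC3, among them snai1b, and 8 in MC1. Of all symbols 29.9% were highest in MC3 and 33.0% in MC1. The 8 regulators highest in MC1 include the prrx1 genes, which shared an assembled gene, and the twist factors, which shared another. On equal totals without the clone-named genes 8 were highest in MC3 and 10 in MC1, against 19.7% and 49.8% of all symbols. Of the 6 tendon regulators, 2 were highest in MC1 and 3 in MC2, against 33.0% and 37.1% of all symbols. On that other scale these were 4 and 1, against 49.8% and 30.5%. In the redox list sod1 and cat differed little between libraries and nqo1 was highest in MC3.

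The symbols ascending beyond the counting intervals with a 4-fold difference or more differed in where MC2 lay. Of 54 such symbols, 9 had MC3 under 1.5 times MC2. Symbols whose MC2 and MC3 intervals overlap were left out, so the counts by the ratio of MC3 to MC2 depend in part on that choice. They were myhz1.1, mylpfa, acta1b, MYH6 and tnnc2, of the thick and thin filaments, mt-nd4, and npr1b, chrdl2 and colgalt2, which are not filament genes. In 31 of the 54 MC3 was 2 times MC2 or more, and 14 lay in between. Filament genes were also among the 31, namely mylz3, neb and tnnt3b. The 31 further included the factors myog, myod1, six4b and pitx3, titin as ttn.1, with 199, 489 and 1768, and ttn.2, with 432, 931 and 3503, desma, and myom2a of the M line, with 25.8, 55.3 and 263. The receptor megf10 of satellite cells, with 77.8, 138 and 335, and cavin1a, a coat protein of caveolae, with 90.7, 207 and 816, were also among them. So was col6a4a, a type VI collagen chain, with 589, 1111 and 4205.

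Few cell cycle genes lay in either steady order. Of 41 cell cycle genes with a mean of 100 or more, 2 were ascending and 2 descending, against 19.7% and 18.1% of all symbols, and 33 were highest in MC2, against 37.1% of all symbols. Thus mki67, a marker of dividing cells, had 577, 834 and 571 in MC1, MC2 and MC3, the replication clamp pcna had 1131, 1289 and 1072 and the kinase cdk1 had 714, 857 and 591. The cell cycle inhibitor cdkn1ba went its own way with 1047, 298 and 355, MC1 being highest, and cdkn1a had 608, 501 and 473. The count of 33 was 28 on equal totals, against 30.2% of all symbols, and 29 without the clone-named genes, against 30.5%. The 2 and 2 became 4 and 5 on equal totals, against 18.7% and 19.8% of all symbols, and 1 and 7 without the clone-named genes, against 12.2% and 29.9%.

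Matrix genes leaned to the ascending order. Of 49 with a mean of 100 or more, 27 were ascending, against 19.7% of all symbols, and 6 descending, against 18.1%. Of the 27, 22 lay beyond the counting intervals, against 6.73%. Their median log2 difference between MC3 and MC1 was 0.31, which is small beside that of the sarcomere genes. On equal totals without the clone-named genes 19 were ascending and 8 descending, against 12.2% and 29.9% of all symbols, with a median of 0.14 against -0.17 over all symbols. The type IV collagen chain of basement membranes col4a2 had 5348, 9717 and 12452, the laminin chain lamb1a had 8644, 9781 and 11589 and the large proteoglycan vcana had 758, 2551 and 4623. In these 3, MC1 was lowest and MC3 highest.

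Targets and members of the TGF-beta and Yap pathways, which read growth factors and stretch, were mostly low in MC1. Of 24 with a mean of 100 or more, 21 were lowest in MC1, against 40.0% of all symbols, and 15 were highest in MC2, against 37.1%. The matricellular Yap targets ccn2a and ccn1 had 11176, 19739.6 and 14383 (ccn2a) and 6985, 11514 and 7825 (ccn1), and the repeat protein ankrd1a had 1149.7, 3069 and 2447. By contrast tgfb3, a ligand, had 828, 640.4 and 516 and was highest in MC1, the sole descending member. The count of 21 was 17 on equal totals without the clone-named genes, against 24.7% of all symbols on that scale.

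Genes of redox defence were mostly highest in MC1. Their list was put together after these values were seen, so its counts are descriptions only. Of 29 members with a mean of 100 or more, 24 were highest in MC1, against 33.0% of all symbols, 18 were in descending order, against 18.1%, and none in ascending. On equal totals without the clone-named genes 27 were highest in MC1, against 49.8% of all symbols, and 22 descending, against 29.9%. A mean of 100 can be reached through MC1 alone, as by slc7a11, so the 29 do not stand for the whole list. The median log2 difference was -1.37 between MC3 and MC1, -1.12 between MC2 and MC1 and -0.15 between MC3 and MC2. Besides GSTP1 and sqstm1, the thiol peroxidase prdx1 had 18417, 7515 and 6163, thioredoxin reductase txnrd3 had 11509, 3635 and 3379.5 and the cystine carrier slc7a11 had 1295, 85.6 and 71.0 in MC1, MC2 and MC3. The subunits of glutamate-cysteine ligase, which makes glutathione precursors, gclc and gclm, had 939, 470.1 and 362 (gclc) and 782, 531 and 349.9 (gclm). The pentose phosphate enzyme tktb had 21218, 6647 and 6732.

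Other members of that list went their own way. Superoxide dismutase sod1 had 1610.4, 1806 and 1564, catalase cat had 535, 535 and 458 and the ferritin chain fth1a had 12792, 13085 and 11859, with little difference between libraries. The heme oxygenase hmox1a stood at 26.6, 25.5 and 16.1, and nqo1, a quinone reductase, at 1.96, 17.6 and 38.3, with MC3 highest. The sum of the fibroblast markers and the share of the clone-named genes also differed between MC1 and MC3, and their part in the differences of the sarcomere and redox genes was not tested.

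**Figure D5:**
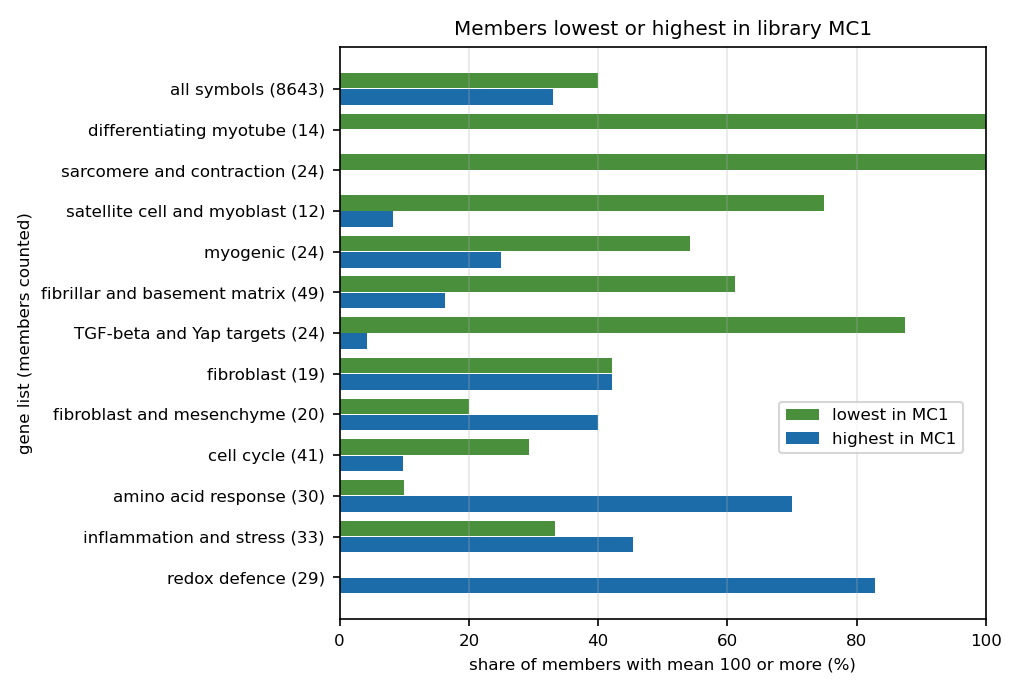
Share of members lowest in MC1 and highest in MC1 for all symbols and for 12 gene lists, in percent of the members with a mean of 100 or more, whose number stands in brackets. Bars start at 0. All symbols stand at 40.0% and 33.0%, the sarcomere and myotube lists, which share many members, at 100% lowest in MC1, and the redox list at 0% lowest. The redox and amino acid lists were put together after the values were seen. A mean of 100 can be reached through 1 or 2 libraries. On equal totals without the clone-named genes all symbols stand at 24.7% lowest and 49.8% highest in MC1.

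Stress factors and the amino acid response shared part of that pattern, in part through the same genes. Thus slc7a11 was in the redox and amino acid lists, TXN in the redox and inflammation lists and atf3 in the amino acid and inflammation lists. A mean of 100 can be reached through MC1 alone here too, as by slc7a11. The amino acid response list, also put together after the values were seen, had 21 of 30 members highest in MC1, against 33.0% of all symbols, and 16 descending, against 18.1%, with a median log2 difference of -0.31. On equal totals without the clone-named genes 31 members had a mean of 100 or more, of which 27 were highest in MC1, against 49.8%, and 19 descending, against 29.9%. The glutathione-degrading enzyme chac1 had 4458, 2413 and 1804, the pseudokinase trib3 had 3359, 1818 and 1651 and the stress factor atf3 had 1793, 508 and 400.1, while atf4a, a known activator of these genes, did not lie in that order. Of 33 inflammation and stress genes 12 were descending, against 18.1% of all symbols, and 5 ascending, against 19.7%. The counts were 16 and 4 on equal totals without the clone-named genes, against 29.9% and 12.2%. The cytokine feedback inhibitor socs3a had 1934, 852 and 441 and the early gene junbb had 7381, 4506 and 3127, with MC1 highest, and the small heat shock protein hspb1 had 2215, 4898 and 5726, with MC3 highest.

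MC3 and MC2 were also compared with MC1 taking no part, the row of each symbol and the mean of 100 or more being set from MC2 and MC3. That mean can still be reached through MC3 alone. The median log2 difference between MC3 and MC2 was -0.04 over 8552 symbols, of which 45.1% were higher in MC3. It was 1.19 over 12 satellite cell and myoblast markers, 10 of them higher in MC3, and 0.45 over 31 sarcomere genes, 27 of them higher. It was 0.48 over 16 myotube markers, 0.23 over 48 matrix genes and 0.18 over 26 myogenic regulators, 18 of them higher in MC3. The difference was thus not particular to muscle lists. The fibroblast and mesenchyme regulators stood at 0.23 with 12 of 19 higher, and the smooth muscle and pericyte markers at 0.24 with 5 of 6. On the other side stood the tenocyte markers, at -0.44 with none of 5 higher in MC3, the tendon regulators, at -0.36 with 1 of 6 higher, the inflammation and stress genes, at -0.27 with 9 of 32, and the cell cycle genes, at -0.26 with 6 of 41. The TGF-beta and Yap list and the redox list both stood at -0.14, and the amino acid list at -0.09. Some of these lists share members, as the sarcomere and myotube lists do to a large part, so their medians are not independent.

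Among the 15 symbols with the largest log2 difference that were descending beyond the counting intervals were 6 clone-named symbols of the 2 assembled genes described above. The largest was aqp3a, a channel for water and glycerol, with 332, 31.6 and 0.872 in MC1, MC2 and MC3, where the MC3 value stands for 2 reads. The phosphate hormone fgf23 had 1377, 119 and 69.7, the polyamine acetylase sat1a.2 had 4526, 884 and 393 and the chemokine cxcl18a.1 had 224, 81.6 and 24.4. sox4a and the stress gene ndrg1a, with 6952, 1134 and 1016, completed the named genes of known role, and ociad2 had 1902, 212 and 124. On the log2 scale MC2 lay nearer to MC3 than to MC1 in fgf23, sat1a.2, sox4a, ndrg1a and ociad2, and nearer to MC1 in aqp3a, cxcl18a.1 and the clone-named symbols. Of all 33 symbols descending beyond the counting intervals by 4-fold or more, 11 had MC2 under 1.5 times MC3 and 9 had MC1 under 2 times MC2. The 9 were the 6 clone-named symbols with tnmd, comp and mn1b.

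Genes of sterol and fatty acid synthesis, a list also made after the values were seen, had different counts on the 2 scales. Of 27, 8 were ascending and 3 descending, against 19.7% and 18.1% of all symbols, but 4 and 8 on equal totals without the clone-named genes, against 12.2% and 29.9%. The ascending ones were led by scd, fasn, the fatty acid synthase, with 2962, 3348 and 4123, and srebf1, while the sterol enzyme cyp51 had 3479, 3205 and 2659 and was descending. Their median log2 difference was 0.02, near that of all symbols.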

How the data were processed

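Per the labels' protocols, TRIzol RNA went into stranded poly(A) libraries. Named in the submitters' processing notes, without their roles, are the zebrafish build GRCz11 and the tools Bowtie2, DESeq2, Trimmomatic and FastQC 0.11.8. The values deposited by the authors are normalised read counts per assembled transcript, written with decimal commas. Within 0.01, 100% of them were whole multiples of 1 step per library, which gave whole reads. How reads that match several transcripts were counted is not given in the sources used here.

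From 71447 rows, after 977128 blank rows were dropped, 59175 were named by symbol, 12266 by an identifier and 6 by a date. One row per symbol, ignoring case, was kept, by the highest mean. Shares are of the total of all rows of MC1, MC2 or MC3, and the symbols that make up 50% were counted on the kept total, since the kept symbols held under that share of all rows. Log2 differences are on value + 1. With 1 group of 3 libraries, no test between groups was made. A chi-square of the reads of each pair of libraries served only to check that they were separate libraries. Named genes were the 30 highest symbols, the 3 highest of a class and the lineage regulators (5 highest of each list and the muscle factors). Also named were the 15 largest differences in each steady order with steps beyond the counting intervals, list members and the extremes of spread. Others, such as mmp13b, krt18b, cdh1 and the members that do not lie in steady order, were chosen after their values were seen. The members and lists were chosen with earlier results of these data known, and the redox, amino acid and sterol lists and the classes set by hand after the values were seen. The code that orders the libraries was checked on simulated data. Values were computed with scipy 1.17.1, numpy 2.4.6 and pandas 2.3.3 under Python 3.11.15, and figures were drawn with matplotlib 3.10.9.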

Additional observations from a re-analysis of the deposited data

How the results depend on the processing

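The share of the 10 highest symbols was 5.46% of the total of all rows. It was 20.6% of the kept total and 29.5% with all rows of a symbol summed, and 4.98% to 6.06% with each library left out. The share of the 300 highest was 15.02%. It was 56.7% of the kept total, 61.6% with rows summed, 13.66% without the 2 clone-named assembled genes and 13.68% with 1 symbol per assembled gene, and 14.6% to 15.7% with each library left out. The 174 symbols that held 50% of the kept total were 67 with rows summed, and 156 to 185 with each library left out. The 1699 ascending symbols were 797 at a mean of 500 or more, 582 beyond the counting intervals, 210 with a 2-fold difference and 1053 on equal totals without the clone-named genes. The 1563 descending symbols were 483, 353, 202 and 2582 in the same settings, and 2411 with no filter on the mean. The 126 lineage regulators above the floor were 60 at 100 or more in every library, and 126 to 127 with a library left out. Of 41 named genes, 15 ascending and 15 descending ones had been chosen for the largest log2 differences beyond the counting intervals. A pseudocount cannot change a direction, and the scalings shifted the differences too little to do so, so these settings could not test it. None of the 41 changed direction with rows summed. The gene pax7b, at 0.29 between MC3 and MC1, was the one that moved by more than the SD of its own log2 values over the 3 libraries. It moved to 0.84 with rows summed and 0.12 on equal totals without the clone-named genes. Larger shifts fell within the wider spread of other genes, such as MYH6, at 5.73 and 4.37 with rows summed, and pax7a, at 2.53 and 3.22. That SD widens with the difference between libraries itself, so the count of genes that moved does not measure how stable a large difference is. aqp3a, at 2 reads in MC3, stood at -7.47, and at -5.84 with a pseudocount of 5. The settings without these genes, with 1 symbol per assembled gene or with MC1 taking no part were chosen after seeing the data, and the cause of the changes was not tested. Ranking per coding length was not run, nor was the 50% count on the total of all rows, which the kept symbols do not reach. No paired analysis was possible because 1 group was described and no test was made. Depth limits the symbols near the floor, which is 1.17 to 1.32 normalised counts and covers counting error only.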
